A study of Sus scrofa with 15 samples.

Results

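The genes described here are the 8 pig genes that encode the chains of major histocompatibility complex (MHC) class II molecules, SLA-DRA, SLA-DRB1, SLA-DQA1, SLA-DQB1, SLA-DMA, SLA-DMB, SLA-DOA and SLA-DOB, together with CD74, the invariant chain, and CIITA, the class II transactivator. They were chosen by name and make up 10 of the 26654 genes in the deposited tables. The study sequenced polyadenylated RNA from the corpus cavernosum, the erectile tissue of the penis, of pigs (Sus scrofa). Its 15 libraries fall into 5 groups of 3, labelled normal, defect, implantation A, ECs+ implantation and implantation B. The study compares normal, defect and implantation A with each other, and ECs+ implantation with implantation B. The labels give each group by its name and the tissue alone: strain, age, sex, time, the material implanted, the meaning of ECs and the difference between implantation A and B are not given in the sources used here. The titles and column names identify the 3 ECs+ implantation libraries, while a second line of their descriptions carries the name of a normal library. Whether a group's 3 libraries stand for 3 animals is not stated. The p-values here weigh each difference only against the variation among these libraries, and that variation may be technical.

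MHC class II molecules are pairs of an alpha and a beta chain that carry peptides from engulfed proteins to the cell surface, where CD4 T cells read them. Dendritic cells, macrophages and B cells make them all the time, and endothelial cells and other cells can be induced to do so by interferon gamma. The invariant chain CD74 holds newly made class II molecules together and guides them to endosomes. There proteases trim it, the DM molecule helps to exchange its last fragment for a peptide, and the DO molecule restrains DM. CIITA binds no DNA itself but is recruited by factors that sit on the promoters of class II genes, and it sets how strongly those genes are transcribed. Pig class II genes carry the prefix SLA, for swine leukocyte antigen.

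On the pig genome build Sscrofa11.1, RefSeq places the 8 chain genes in a 357.6 kb stretch of chromosome 7, from the start of SLA-DRA at 24825037 to the end of SLA-DOA at 25182665. SLA-DRA (24825037 to 24830650) is followed by SLA-DRB1 (24901386 to 24914016), SLA-DQA1 (24953472 to 24959313) and SLA-DQB1 (24969034 to 24977238). Farther along lie SLA-DOB (25030435 to 25038196), SLA-DMB (25119278 to 25125089), SLA-DMA (25133494 to 25137928) and SLA-DOA (25178866 to 25182665). CD74 lies on chromosome 2 (151402210 to 151409924) and CIITA on chromosome 3 (32171706 to 32230775). The span of BRD2 (25096579 to 25162591) covers SLA-DMA and SLA-DMB, and that of DEXI (32160222 to 32173024) overlaps CIITA. No source used here states a strand setting for the counting, and reads of overlapping genes may have been counted together. Class II genes also resemble one another and vary between animals, so how reads were divided among SLA-DRB1, SLA-DQA1, SLA-DQB1 and like genes is uncertain.

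Total counts ran from 17234169 to 19644793 in 13 libraries. Defect 1 and defect 2 held only 207769 and 250178, so that 3 counts there equal 14.4 and 11.99 CPM (counts scaled by the library total), while defect 3 held 17703564. Fitted changes of the defect group therefore rest mainly on defect 3 for genes with few counts. The tissue markers PECAM1 and CDH5 (endothelium) and ACTA2 and MYH11 (smooth muscle) were present in every group. The ECs+ implantation libraries stood apart in that 8 keratinocyte markers summed to 7.35 ± 0.340 CPM there (SD, n = 3), against 1069.9 ± 24.3 in normal and 2222 ± 21.5 in implantation B.

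In TPM, the deposited values that correct for transcript length, CD74 was the most abundant of the 10 genes in normal tissue at 1850.3 ± 37.5 TPM (SD, n = 3, as for every mean given here). The 4 classical chain genes, which form the peptide-presenting DR and DQ molecules, followed at 652 ± 3.83 for SLA-DRB1, 605 ± 6.20 for SLA-DQB1, 552 ± 18.1 for SLA-DRA and 412 ± 15.6 for SLA-DQA1. The DM chains were lower, with SLA-DMA at 116 ± 9.17 and SLA-DMB at 64.6 ± 2.54 TPM. SLA-DOA at 20.8 ± 1.08, CIITA at 16.8 ± 1.03 and SLA-DOB at 3.77 ± 0.514 TPM were the lowest. Over the 15 libraries the 4 classical genes made up 91.0% to 94.6% of the summed TPM of the 8 chain genes.

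Levels of single genes below are CPM scaled by TMM factors of all 15 libraries, given for libraries 1, 2 and 3 of a group in that order. The factors differ within the defect group, at 1.03, 0.998 and 0.844. Without them SLA-DRA, for example, was 448, 408 and 420 CPM in the defect libraries. SLA-DRA and SLA-DRB1 encode the alpha and beta chains of the DR molecule. SLA-DRA stood at 323, 342 and 322 CPM in the normal libraries, at 435, 409 and 498 in the defect libraries and at 237, 250.3 and 241 in the implantation A libraries. In implantation B its level was 314, 313 and 314 CPM, and in ECs+ implantation 752, 734 and 733. Every ECs+ implantation library was above all other libraries, and every implantation A library below them. SLA-DRB1 stood at 382, 382 and 374 CPM in the normal libraries, at 248, 320.5 and 357 in the defect libraries and at 151, 148 and 147 in the implantation A libraries. The implantation B libraries gave 184, 175 and 185 CPM and the ECs+ implantation libraries 739, 718 and 728. For SLA-DRB1 no 2 groups overlapped on this scale, and here normal tissue came second while implantation A was again lowest. Without TMM factors, implantation A (158.9, 156.6 and 154.5 CPM) and implantation B (163.4, 155.3 and 163.8) overlapped.

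SLA-DQA1 and SLA-DQB1 encode the alpha and beta chains of the DQ molecule. SLA-DQA1 stood at 218, 233 and 217 CPM in the normal libraries, at 285, 284 and 399 in the defect libraries and at 178, 181 and 182 in the implantation A libraries. Implantation B held 265, 269 and 263 CPM, whereas ECs+ implantation held 683, 668 and 687. No groups overlapped on this scale, and the order ran from ECs+ implantation through defect, implantation B and normal to implantation A. Without TMM factors, implantation B (234.9, 239.6 and 232.5 CPM) and normal (236.5, 256.3 and 241.7) overlapped. SLA-DQB1 stood at 338, 343 and 334 CPM in the normal libraries, at 295, 373 and 407 in the defect libraries and at 216, 219 and 215 in the implantation A libraries. In implantation B its level was 284, 287 and 286 CPM, and in ECs+ implantation 586, 577 and 590.2. The defect libraries straddled the normal ones for SLA-DQB1, while implantation A remained lowest and ECs+ implantation highest without overlap.

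SLA-DMA and SLA-DMB encode the DM molecule, the catalyst of peptide exchange. SLA-DMA stood at 60.7, 51.8 and 54.4 CPM in the normal libraries, at 32.7, 40.1 and 56.4 in the defect libraries and at 33.6, 29.9 and 33.8 in the implantation A libraries. The implantation B libraries gave 37.9, 38.7 and 35.1 CPM and the ECs+ implantation libraries 97.2, 95.6 and 106. The defect values spread from the level of implantation A to that of normal tissue. They rest on 7, 10 and 843 counts. SLA-DMB stood at 45.1, 44.1 and 41.3 CPM in the normal libraries, at 23.4, 64.1 and 63.1 in the defect libraries and at 29.6, 29.1 and 30.1 in the implantation A libraries. Implantation B held 44.1, 44.3 and 43.3 CPM, whereas ECs+ implantation held 80.2, 74.4 and 76.5. Here the defect values came from 5, 16 and 942 counts and spanned the whole range below ECs+ implantation, while implantation B and normal were level.

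SLA-DOA and SLA-DOB encode the DO molecule, the inhibitor of DM. SLA-DOA stood at 22.1, 19.9 and 20.8 CPM in the normal libraries, at 9.35, 8.01 and 16.7 in the defect libraries and at 10.4, 11.9 and 13.1 in the implantation A libraries. In implantation B its level was 9.99, 9.72 and 11.9 CPM, and in ECs+ implantation 32.9, 30.4 and 30.8. Normal and ECs+ implantation lay above the other 3 groups, which overlapped. SLA-DOB stood at 2.57, 3.07 and 2.73 CPM in the normal libraries, at 14.0, 20.03 and 6.83 in the defect libraries and at 3.24, 4.15 and 3.21 in the implantation A libraries. The implantation B libraries gave 3.80, 3.98 and 3.77 CPM and the ECs+ implantation libraries 1.81, 1.81 and 1.52. SLA-DOB thus ran the other way: its lowest values were those of ECs+ implantation and its highest those of the defect group. The defect values of SLA-DOB rest on 3, 5 and 102 counts, and the exact Poisson 95% intervals of defect 1 and 2, which cover counting error only, were 2.89 to 41.0 and 6.50 to 46.7 CPM.

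CD74, which also serves as a surface receptor for the cytokine MIF, had the highest TPM of the 10 genes in every group. CD74 stood at 1105, 1056 and 1045 CPM in the normal libraries, at 650.1, 605 and 836 in the defect libraries and at 588, 561 and 582 in the implantation A libraries. Implantation B held 519, 510.4 and 506 CPM, whereas ECs+ implantation held 2215, 2147 and 2184. The 5 groups did not overlap on this scale, with ECs+ implantation above normal, and normal above defect, implantation A and implantation B. Without TMM factors, implantation A (618, 592 and 611 CPM) and defect (669, 604 and 706) overlapped. CIITA stood at 59.5, 60.9 and 56.9 CPM in the normal libraries, at 32.7, 40.1 and 43.1 in the defect libraries and at 35.3, 35.7 and 35.7 in the implantation A libraries. In implantation B its level was 30.3, 29.6 and 31.6 CPM, and in ECs+ implantation 69.3, 66.2 and 69.0. CIITA had the same order of group means as CD74, but ECs+ implantation exceeded normal by far less, and the defect and implantation A libraries overlapped.

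**Figure D1:**
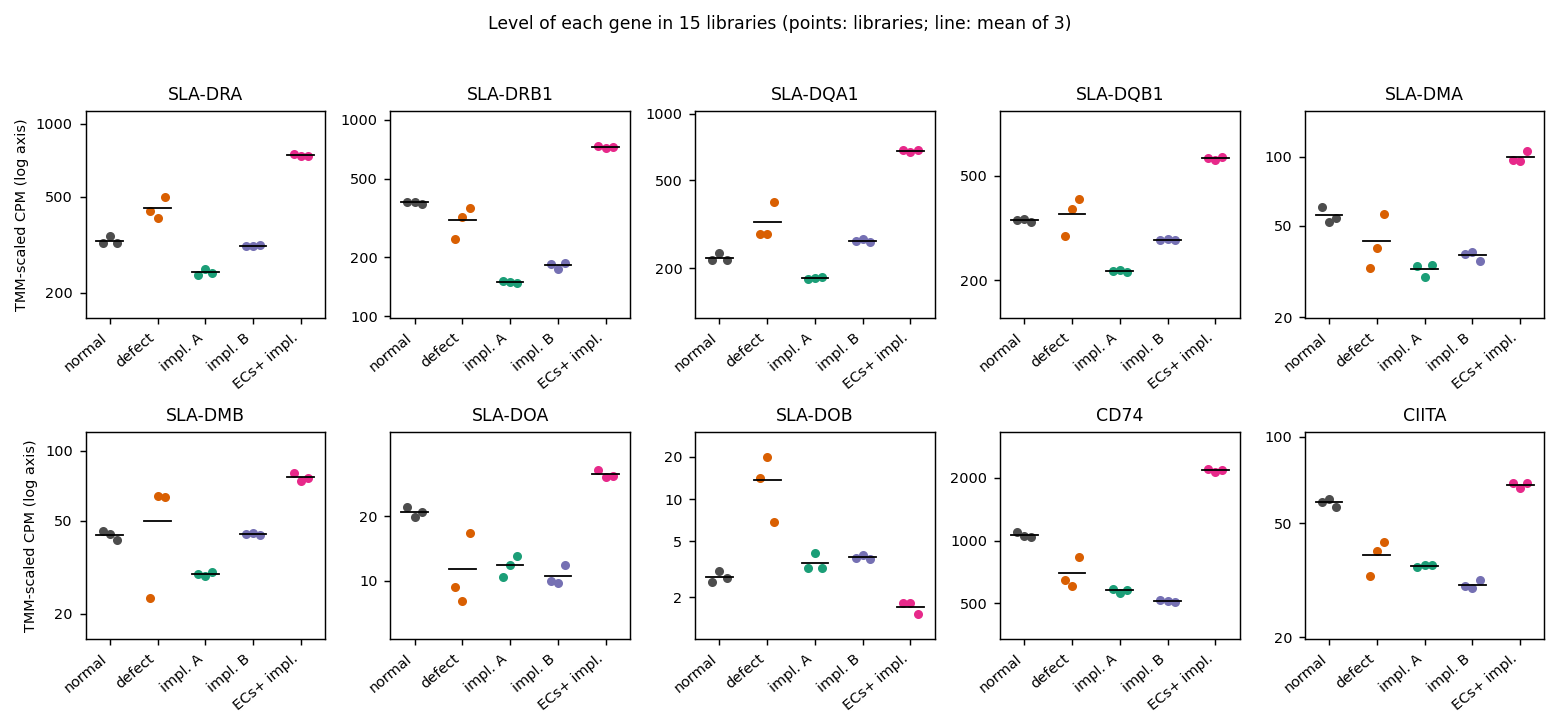
Level of each of the 10 genes (TMM-scaled CPM, log axis) in the 15 libraries, 1 point per library and a line at the mean of 3, by group. The ECs+ implantation libraries are highest for 9 genes and lowest for SLA-DOB, and the defect libraries scatter most.

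In a fit of all 15 libraries, neighbouring groups in the order of a gene's mean CPM were tested with edgeR at an adjusted p of 0.05. The share of all genes that passed was 29.5% between implantation B and defect, 42.7% between implantation A and defect, 50.8% between implantation A and B and 62.3% between defect and ECs+ implantation. It was 63.2% between defect and normal and 63.7% between implantation A and normal. The remaining 4 pairs had 70.4% (implantation A and ECs+ implantation), 71.3% (normal and ECs+ implantation), 73.3% (implantation B and ECs+ implantation) and 73.8% (implantation B and normal). The neighbours that did not pass were normal and implantation B for SLA-DRA (adjusted p = 0.173), normal and defect for SLA-DMA (0.914), implantation B and normal for SLA-DMB (0.869), and implantation B and A (0.609) as well as implantation A and normal (0.111) for SLA-DOB. For SLA-DOA the mean CPM put implantation A above defect, whereas the fitted difference, which gives the deep defect 3 more weight, put defect above by 0.47 on the log2 scale. Scaled by library size alone, without TMM factors, 4 of the 10 genes kept their order of groups, and in TPM 7 of them did. For CIITA the top of the order turned: in TPM normal tissue stood at 16.8 ± 1.03 and ECs+ implantation at 14.2 ± 0.261, against 59.1 ± 2.06 and 68.2 ± 1.74 in CPM.

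The summed CPM of the 8 chain genes, without TMM factors, was 912 ± 9.25 in implantation A, 1012 ± 2.70 in implantation B, 1473 ± 79.3 in defect, 1530.4 ± 25.8 in normal and 2999.6 ± 29.9 in ECs+ implantation. The order of defect and normal depends on the scale: in TPM the same sum was 2671 ± 171 in defect and 2426 ± 35.3 in normal. In bulk tissue, fewer cells that make class II and less class II RNA per cell cannot be told apart, and this holds for every comparison that follows.

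ECs+ implantation and implantation B are a pair that the study sets against each other, without naming what the 2 implants hold. CD74 was 4.16-fold higher in ECs+ implantation and SLA-DRB1 3.91-fold. SLA-DOA (2.90-fold), SLA-DMA (2.61), SLA-DQA1 (2.49), SLA-DRA (2.30), CIITA (2.18), SLA-DQB1 (1.998) and SLA-DMB (1.71) were higher too. SLA-DOB alone was lower, by 2.30-fold. Thus 9 of the 10 genes rose and 1 fell, in a comparison in which 75.8% of the 17204 genes tested changed, 37.8% upward and 38.1% downward.

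By edgeR's quasi-likelihood test with Benjamini-Hochberg adjustment, the log2 fold change was 2.06 for CD74 (SE 0.020, adjusted p = 3.55e-55), 1.97 for SLA-DRB1 (SE 0.026, adjusted p = 1.79e-49) and 1.12 for CIITA (SE 0.056, adjusted p = 3.66e-24). For SLA-DOB it was -1.20 (SE 0.22, adjusted p = 3.21e-06), from 33, 33 and 29 counts in ECs+ implantation and 62, 61 and 65 in implantation B. The other 6 ranged from 0.78 to 1.54. The median of the 10 genes was 1.26, against 0.018 over all genes tested. Of the 10, 8 passed and differed at least 2-fold, as did 26.3% of all genes tested. The 2 groups did not overlap for any of the 10 genes, nor for 77.6% of all genes tested. All 10 calls held in the 13 alternatives run, although the median of all genes moved to 0.26 with scaling by library size alone and to -0.17 on log2(TPM + 1).

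The alpha and beta chains of a pair did not rise alike: SLA-DRB1 rose by 1.97 and SLA-DRA by 1.20 on the log2 scale, SLA-DMA by 1.39 and SLA-DMB by 0.78. The DQ pair was closer, with SLA-DQA1 at 1.32 and SLA-DQB1 at 0.998. The DO pair moved in opposite directions, with SLA-DOA at 1.54 and SLA-DOB at -1.20. Several marker sums moved with this comparison. The 12 endothelial markers summed to 4377 ± 42.6 CPM in ECs+ implantation and 1769.8 ± 3.91 in implantation B, and 11 of them were higher, PECAM1 by 1.41 and CLDN5 by 2.24 on the log2 scale. The 14 macrophage and monocyte markers summed to 467 ± 7.05 and 966 ± 5.92, with 12 lower and 1 higher. All 8 keratinocyte markers were lower, and KRT15 had 0 counts in each ECs+ implantation library. The part of these cell types in the class II result was not tested.

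**Figure D2:**
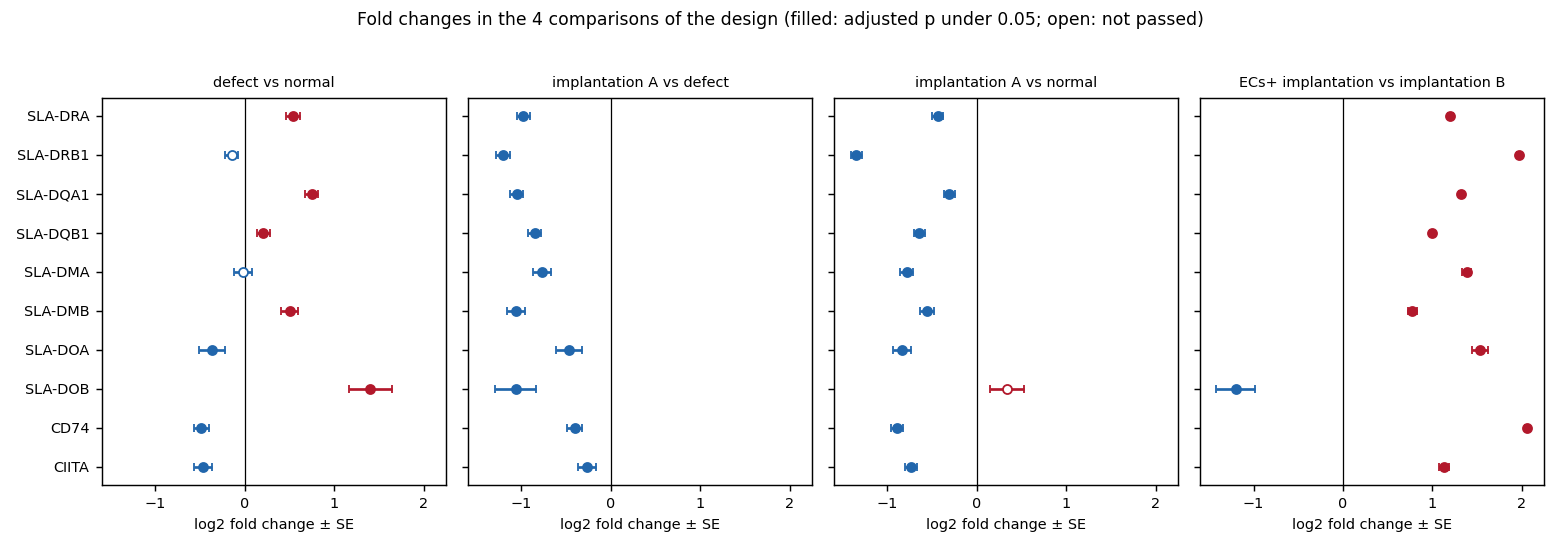
Log2 fold change with its SE for the 10 genes in each of the 4 comparisons, filled where the adjusted p was under 0.05 and open where it was not. In ECs+ implantation against implantation B 9 genes lie to the right of 0 and SLA-DOB to the left, and in implantation A against defect all 10 lie to the left.

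Defect and normal tissue differed in no common direction. SLA-DOB (2.64-fold), SLA-DQA1 (1.68), SLA-DRA (1.45), SLA-DMB (1.42) and SLA-DQB1 (1.15) were higher in the defect group. CD74 (1.403-fold), CIITA (1.38) and SLA-DOA (1.29) were lower. SLA-DRB1 and SLA-DMA did not pass. The 5 genes that rose and 3 that fell stand in a comparison in which 63.9% of the 17855 genes tested changed, 32% upward and 31.9% downward.

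The edgeR log2 fold changes were 0.75 for SLA-DQA1 (SE 0.076, adjusted p = 1.32e-14) and 0.54 for SLA-DRA (SE 0.075, adjusted p = 1.26e-09). For CD74 the value was -0.49 (SE 0.083, adjusted p = 2.62e-07) and for CIITA -0.47 (SE 0.098, adjusted p = 2.15e-05). SLA-DQB1 (0.21, adjusted p = 0.0140) and SLA-DOA (-0.37, adjusted p = 0.0203) lay closest to the threshold among those that passed. SLA-DRB1 gave -0.15 (adjusted p = 0.0843) although its defect libraries were all below the normal ones, and SLA-DMA -0.018 (adjusted p = 0.883). In the edgeR fit of all 15 libraries SLA-DRB1 passed as lower (-0.13, adjusted p = 0.0490), and it stayed outside the threshold in 12 of the 18 alternatives. The median of the 10 genes was 0.094, against -0.048 over all genes tested, and the 2 groups did not overlap for 7 of the 10 and for 50.7% of all genes. CD74 and SLA-DRA, whose products bind each other, thus moved in opposite directions.

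These calls lean on defect 3. Without it, where the median of all genes moves to -0.43, 3 genes were higher and 2 lower, with SLA-DRA at 0.36, SLA-DQA1 at 0.35, SLA-DOB at 2.62, CD74 at -0.77 and SLA-DRB1 at -0.40 passing, while SLA-DQB1 (-0.0099), SLA-DMA (-0.60), SLA-DMB (0.058), SLA-DOA (-1.28) and CIITA (-0.69) did not. Without the shallow defect 1 and 2 instead, 5 were higher and 3 lower. Scaled by library size alone, which moves the median of all genes to -0.41, 3 were higher and 6 lower, and SLA-DQB1 turned to -0.12. In limma-trend on log2(TPM + 1), 3 were higher and 5 lower. The shares of all genes that changed were not computed for these settings. SLA-DRA, SLA-DQA1, SLA-DOB and CD74 kept their calls in all 18 alternatives.

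Cell markers moved with this comparison too. All 14 macrophage and monocyte markers were higher in the defect group, where they summed to 971 ± 72.1 CPM against 581 ± 15.1 in normal tissue, among them LYZ at 7.45 and MRC1 at 2.28 on the log2 scale. Of the 12 endothelial markers 10 were lower and 1 higher, with sums of 2509 ± 90.7 and 4709 ± 77.8 CPM. Their part in the class II values was not tested.

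Implantation A had less class II RNA than either of the groups it was compared with. Against defect, all 10 genes were lower, in a comparison in which 41.8% of the 17855 genes tested changed, 20.4% upward and 21.4% downward. SLA-DRB1 was 2.30-fold lower, SLA-DOB 2.09, SLA-DMB 2.08, SLA-DQA1 2.08 and SLA-DRA 1.97. SLA-DQB1 (1.81-fold), SLA-DMA (1.70), SLA-DOA (1.38), CD74 (1.32) and CIITA (1.20) changed less. Against normal, 9 of the 10 genes were lower, where 64.5% of all genes changed, 32.2% upward and 32.3% downward. There SLA-DRB1 was 2.55-fold lower, CD74 1.86, SLA-DOA 1.78, SLA-DMA 1.72, CIITA 1.66, SLA-DQB1 1.56, SLA-DMB 1.47, SLA-DRA 1.36 and SLA-DQA1 1.24.

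Both comparisons use the same 3 implantation A libraries. Against defect, the edgeR log2 fold changes were -1.20 for SLA-DRB1 (SE 0.076, adjusted p = 7.92e-25), -0.40 for CD74 (SE 0.082, adjusted p = 2.73e-05) and -0.27 for CIITA (SE 0.10, adjusted p = 0.0248). Against normal, the values were -1.35 (SE 0.061, adjusted p = 1.47e-34), -0.89 (SE 0.069, adjusted p = 2.53e-20) and -0.74 (SE 0.068, adjusted p = 2.54e-16). SLA-DOB did not pass against normal (0.34, adjusted p = 0.114), with its implantation A libraries all above the normal ones. The median of the 10 genes was -0.92 against defect and -0.69 against normal, where the medians of all genes tested were 0.021 and -0.025. Implantation A did not overlap defect for 6 of the 10 genes, against 40.3% of all genes tested. It did not overlap normal for any of the 10, where 68.8% of all genes did not overlap.

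The falls from defect rest in part on defect 3. Without it, where the median of all genes moves to 0.39, 5 genes were lower, SLA-DRA, SLA-DRB1, SLA-DQA1, SLA-DQB1 and SLA-DOB (-2.28), while SLA-DMA (-0.18), SLA-DMB (-0.61), CD74 (-0.12) and CIITA (-0.042) did not pass and SLA-DOA turned to 0.45. In TPM with a pseudocount of 1 or 0.1, 5 were lower. Scaled by library size alone, which moves the median of all genes to 0.33, 8 were lower and CIITA turned to 0.040. The shares of all genes that changed were not computed for these settings. The CIITA call held in 9 of the 18 alternatives and the SLA-DOA call in 11, while those of SLA-DRA, SLA-DRB1, SLA-DQA1, SLA-DQB1 and SLA-DOB held in all 18. Against normal 6 to 9 were lower in all alternatives run. The 14 macrophage and monocyte markers summed to 382 ± 3.62 CPM in implantation A, with all 14 lower than in defect, and 7 lower and 2 higher than in normal tissue. Smooth muscle markers were higher in implantation A for 9 of 10 in each comparison, and summed to 6896 ± 38.3 CPM against 3422 ± 29.4 in defect and 4588 ± 64.0 in normal tissue. All 12 endothelial markers were lower than in normal tissue, with log2 fold changes of -2.04 for CLDN5 and -0.61 for PECAM1. The part of these cell types in the class II values was not tested.

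The chains of a class II molecule are needed in equal numbers, so ratios of TPM within a library were compared. SLA-DRA to SLA-DRB1 was 0.826, 0.876 and 0.841 in the normal libraries and 0.990, 0.994 and 0.981 in ECs+ implantation. In defect the ratio was 1.70, 1.24 and 1.36, in implantation A 1.54, 1.65 and 1.61 and in implantation B 1.68, 1.78 and 1.67. All 9 of these last libraries lay above all 6 normal and ECs+ implantation libraries. SLA-DRB1 varies between animals, SLA haplotypes are not given in the sources used here, and whether its reads mapped alike in all groups was not tested.

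SLA-DQA1 to SLA-DQB1 was 0.681 ± 0.0192 in normal, 0.834 ± 0.0126 in implantation A, 0.932 ± 0.00773 in implantation B, 0.956 ± 0.133 in defect and 1.16 ± 0.00969 in ECs+ implantation. The normal libraries had the lowest and the ECs+ implantation libraries the highest values, with no overlap with any other group. SLA-DMA to SLA-DMB was 1.79 ± 0.131 in normal and 1.84 ± 0.120 in ECs+ implantation, against 1.54 ± 0.0824 in implantation A and 1.20 ± 0.0465 in implantation B. Its defect values of 2.01, 0.884 and 1.26 span those of all other groups. SLA-DOA to SLA-DOB had the widest range of the ratios, from 1.01 ± 0.935 in defect, 1.99 ± 0.247 in implantation B and 2.87 ± 0.516 in implantation A to 5.59 ± 0.935 in normal and 15.3 ± 2.97 in ECs+ implantation.

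CD74 to SLA-DRA, the invariant chain over a chain it binds, was 3.50, 3.22 and 3.33 in normal and 3.04, 3.06 and 3.10 in ECs+ implantation. It was lower at 2.60, 2.32 and 2.55 in implantation A, 1.72, 1.76 and 1.74 in implantation B and 1.48, 1.41 and 1.75 in defect. CD74 to CIITA, a target gene over its activator, was 111 ± 8.20 in normal, 100.4 ± 32.0 in defect, 105 ± 7.13 in implantation A and 103 ± 3.49 in implantation B, which all overlapped, and 209 ± 4.79 in ECs+ implantation, above all of them. Over 6 ratios and 4 comparisons, 24 two-sided exact permutation tests were run. In 17 of them the groups did not overlap and the exact permutation p = 0.1 (adjusted 0.141 over the 24), the smallest value that 3 against 3 libraries can give, so no ratio can pass 0.05.

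**Figure D3:**
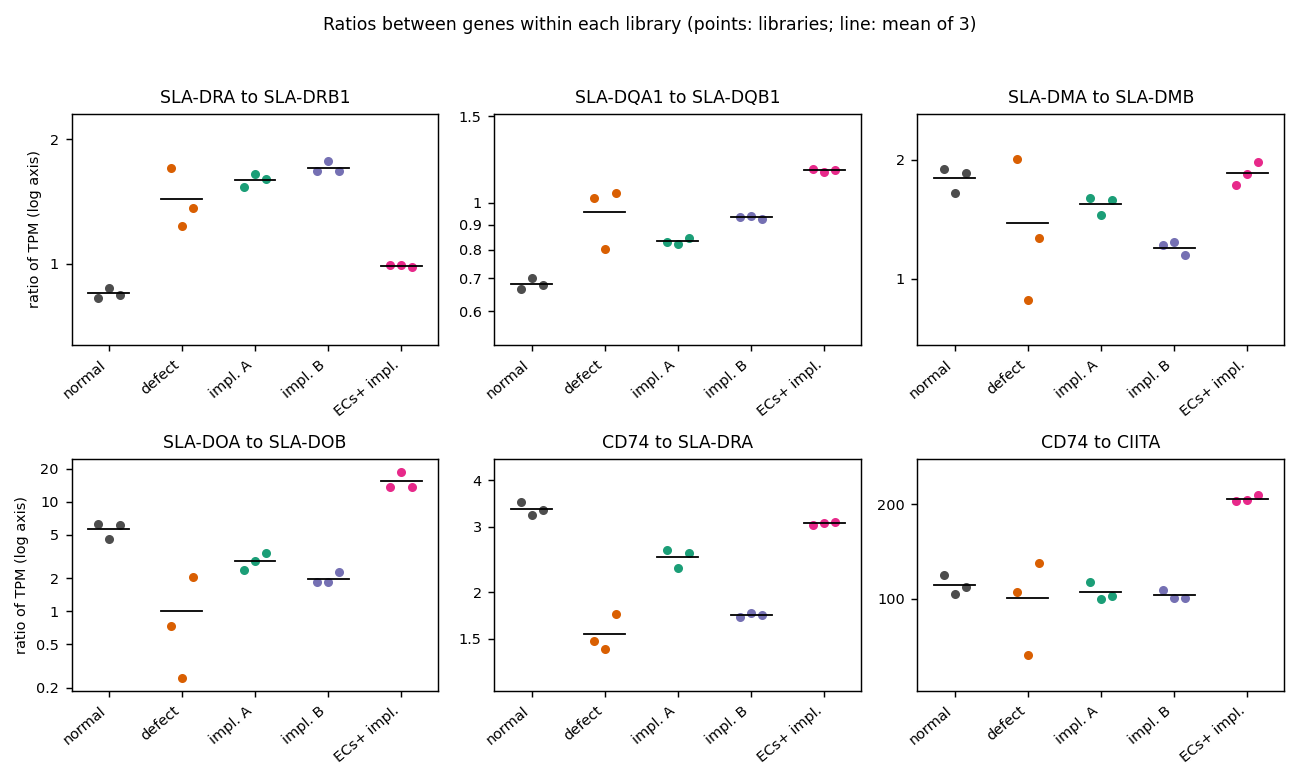
Ratios of TPM between genes within each library (log axis), 1 point per library and a line at the mean of 3, by group. SLA-DRA to SLA-DRB1 is between 0.826 and 0.994 in normal and ECs+ implantation and above it in the other 3 groups, and CD74 to CIITA is raised in ECs+ implantation.

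The stretch of chromosome 7 from SLA-DRA to SLA-DOA holds 20 rows of the tables, the 8 chain genes and 12 others. These rows were taken in after the values of the chain genes had been seen. In ECs+ implantation against implantation B, 7 of the 10 others tested were higher and 2 lower, where 37.8% of all genes tested were higher and 38.1% lower. The higher ones include TAP1 (0.46) and TAP2 (0.70), the transporter that feeds peptides to class I molecules, and PSMB8 (1.37) and PSMB9 (1.13), subunits of the immunoproteasome. BRD2, which lies over the DM genes, gave -0.077, against 1.39 for SLA-DMA and 0.78 for SLA-DMB. In defect against normal, 1 of the 9 tested was higher, TAP1 (0.33), and 3 were lower, where 32% of all genes were higher and 31.9% lower. In implantation A, 0 were higher and 2 lower than in defect, where 41.8% of all genes changed. Against normal tissue 1 was higher and 4 lower, where 64.5% of all genes changed.

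LOC110261499, a long noncoding RNA gene that RefSeq sets between SLA-DRA and SLA-DRB1 (chromosome 7, 24872216 to 24888445), had 95, 97 and 105 counts in the ECs+ implantation libraries and 4, 14 and 4 in implantation B, a log2 fold change of 3.51. It had 18, 20 and 6 counts in normal, and too few elsewhere to be tested in the other comparisons. LOC100155975, a long noncoding RNA gene past SLA-DQB1 (24980348 to 24992759), was higher in ECs+ implantation than in implantation B (1.55) and lower than normal in defect (-1.06) and implantation A (-0.92). LOC106504372 (25000257 to 25000539), which RefSeq gives the synonym SLA-DRB, had 0 to 12 counts per library and was not tested. The last 3 genes were chosen after their values were seen.

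**Figure D4:**
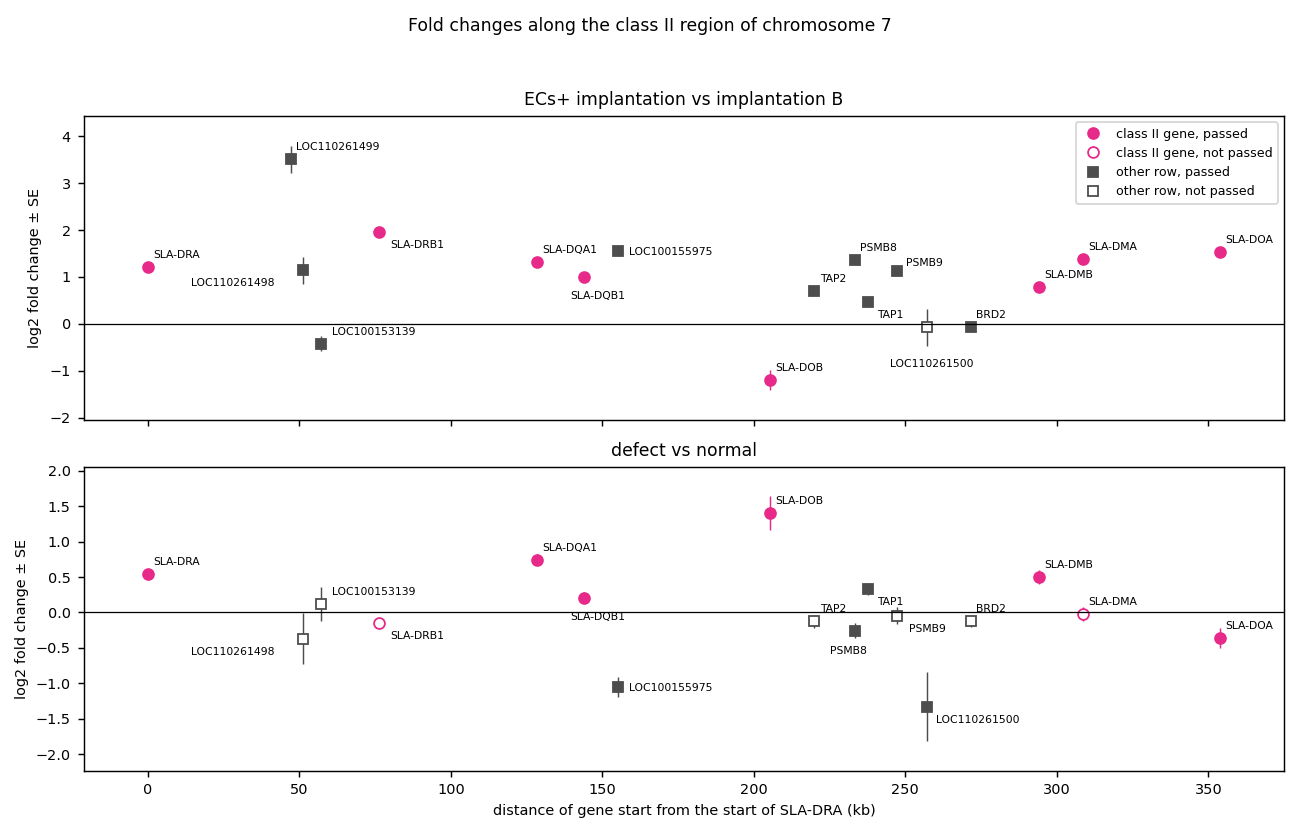
Log2 fold change with its SE of each tested row from SLA-DRA to SLA-DOA, against the distance of its start from the start of SLA-DRA in kb, in 2 comparisons. In ECs+ implantation against implantation B most rows lie above 0, SLA-DOB and BRD2 among those below, while in defect against normal the rows lie on both sides of 0.

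The lists below are to be read beside the shares of all genes tested. In ECs+ implantation against implantation B 37.8% were higher and 38.1% lower, and in defect against normal 32% and 31.9%. In implantation A 20.4% were higher and 21.4% lower than in defect, and 32.2% and 32.3% than in normal. A tally near these shares says nothing particular about its list. Of the 8 factors that sit on class II promoters and recruit CIITA, 4 were higher and 1 lower in ECs+ implantation against implantation B, while 4 were higher and 4 lower in defect against normal. RFXANK, a subunit of the RFX complex, was 0.74 in ECs+ implantation against implantation B, -0.86 in defect and -0.72 in implantation A, both against normal. RFX5, its partner, gave 0.30, -0.33 and -0.33. CREB1, which binds a neighbouring promoter element, ran against CIITA in these 3 comparisons, at -0.28, 0.69 and 0.72. Of the NF-Y subunits, NFYB was higher in ECs+ implantation (0.40), NFYC lower in defect than in normal (-0.59), and NFYA (0.71) and NFYC (0.34) higher in implantation A than in defect, where CIITA was lower. Implantation A against defect had 2 higher and 1 lower, and against normal 4 higher and 3 lower. CIITA itself gave 1.12, -0.47, -0.27 and -0.74 in the 4 comparisons, in the order ECs+ implantation against implantation B, defect against normal, implantation A against defect and implantation A against normal.

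Interferon gamma induces CIITA through JAK kinases and the transcription factor IRF1, among others. IFNG had 0 or 1 count in each library and was not tested, and the 3 counts that a count of 0 allows equal 0.153 to 0.174 CPM in the 13 deep libraries. In defect against normal, where CIITA fell, IRF1 was higher by 0.61 and JAK2, a kinase of the interferon gamma receptor, by 1.78 on the log2 scale. In implantation A against normal, where CIITA fell too, IRF1 (0.23) and JAK2 (0.75) were again higher. In ECs+ implantation against implantation B, where CIITA rose, IRF1 was higher (0.48) and JAK2 did not pass (-0.11). There the receptor chain gene IFNGR1 was higher (0.65) and the kinase gene JAK1 lower (-0.69). In implantation A against defect both were lower, IRF1 at -0.38 and JAK2 at -1.03, as were IFNGR1 at -0.61 and CIITA at -0.27.

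The 11 genes tested for endosomal proteases and the thiol reductase IFI30, whose products prepare the invariant chain and antigens in endosomes, did not follow CD74 in 3 comparisons. In defect against normal 9 were higher and 0 lower, with CTSS, the main protease of the invariant chain in antigen-presenting cells, at 1.88, IFI30 at 2.61 and LGMN at 1.69, while CD74 was at -0.49. In implantation A against defect 0 were higher and all 11 lower (CTSS -1.39), and against normal 7 were higher and 2 lower (CTSS 0.50, CD74 -0.89). In ECs+ implantation against implantation B 4 were higher and 7 lower (CTSS 0.27, CTSB -0.68, LGMN -0.63), with CD74 at 2.06. The medians of the list were 1.23, -0.99, 0.40 and -0.28, against -0.048, 0.021, -0.025 and 0.018 over all genes tested.

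Of 8 genes for the turnover and endosomal transport of class II, 3 were higher and 5 lower in ECs+ implantation against implantation B, among them LAMP2 at -2.69 and CD83, which shields surface class II from removal, at -1.44. There 75.8% of all genes tested changed. In defect against normal 5 were higher and 2 lower, and in implantation A 0 were higher and 5 lower than in defect and 3 higher and 4 lower than in normal tissue. CD74 acts with CD44 and chemokine receptors as the receptor of MIF. Of the 6 genes for MIF, its relative DDT and these receptors, 1 was higher and 4 lower in ECs+ implantation against implantation B, with CD44 at -1.89, ACKR3 at -1.97 and MIF, which did not pass, at -0.054. In defect against normal 4 were higher and 0 lower, CD44 at 1.32. In implantation A 0 were higher and 4 lower than in defect, and 2 were higher and 1 lower than in normal tissue.

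On the T cell side, CD4, the co-receptor that binds class II, gave 2.73 in defect against normal, -2.67 in implantation A against defect and -2.79 in ECs+ implantation against implantation B, and did not pass in implantation A against normal (0.068). Its counts were low, with 0, 2 and 109 in the defect libraries, 54 to 71 in implantation B and 10 or 11 in ECs+ implantation. LAG3, an inhibitory receptor for class II, gave 0.72 in ECs+ implantation against implantation B, and the costimulatory CD40 1.38 and CD86 -0.41. CD4 and CD28 are also among the T cell markers, and CD83 among those of dendritic cells. Of the 10 genes for class II receptors and costimulation, 3 were higher and 5 lower in ECs+ implantation against implantation B (8 tested), 3 higher and 1 lower in defect against normal (7 tested), and in implantation A 1 higher and 4 lower than in defect and 3 higher and 3 lower than in normal. The shares of all genes that changed were 75.8%, 63.9%, 41.8% and 64.5% in these comparisons, in the same order.

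Class II is made at all times by dendritic cells, macrophages and B cells, so their markers were set beside the summed class II level. All marker sums are CPM without TMM factors, whereas the log2 fold changes use them. These factors were 1.03, 0.998 and 0.844 in defect 1, 2 and 3 and 1.09 to 1.12 in normal, so sums and fold changes of these groups are not on the same scale. Of the 5 groups, ECs+ implantation had the highest class II sum and, at 467 ± 7.05 CPM, the second lowest macrophage and monocyte sum, with CSF1R at -2.04 and CD163 at -2.94 against implantation B. Implantation B and defect had the highest macrophage sums, at 966 ± 5.92 and 971 ± 72.1 CPM. Dendritic cell markers summed to 496 ± 14.7 CPM in normal, 392 ± 67.4 in defect, 361 ± 3.97 in ECs+ implantation, 319 ± 9.70 in implantation A and 240.1 ± 7.44 in implantation B. Of them 4 were higher and 5 lower in ECs+ implantation against implantation B (13 of 14 tested). FLT3 gave -1.71 and CLEC9A, chosen after its value was seen, 1.93, from 30, 25 and 26 counts against 2, 11 and 5.

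In defect against normal 7 of the 11 dendritic cell markers tested were higher and 2 lower (ITGAX 1.87, IRF4 2.76), in implantation A against defect 1 was higher and 8 lower, and against normal 3 were higher and 3 lower. CLEC10A had 0 counts in the defect and ECs+ implantation libraries. B cell markers summed to 21.6 to 57.8 CPM over all libraries. Of them 0 were higher and 4 lower in ECs+ implantation against implantation B, 4 were higher and 2 lower in defect against normal, and in implantation A 1 higher and 5 lower than in defect and 0 higher and 3 lower than in normal tissue. CD79B passed in none of the 4, and CD79A was at -2.16 in ECs+ implantation against implantation B. T cell markers summed to 29.1 to 62.6 CPM over all libraries, with means of 61.7 ± 0.391 in ECs+ implantation and 30.6 ± 1.36 in implantation B. Between these 2 groups 1 T cell marker was higher in ECs+ implantation, CD247 (1.85), and 5 were lower. In defect against normal 5 were higher and 1 lower. In implantation A 0 were higher and 6 lower than in defect, and 0 higher and 3 lower than in normal tissue. Both sums were highest in defect 1, a shallow library.

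Endothelial markers were lower in implantation A than in defect for 5 of 12 and higher for 4. By group mean, CIITA and the endothelial sum were each highest in normal and ECs+ implantation. So were the sums of the T cell markers, of the class II promoter factors and of the genes for class II receptors and costimulation. In ECs+ implantation against implantation B, however, CD247 was the only T cell marker that was higher, and 5 were lower. The part of the endothelial list and of these other lists in the CIITA level was not tested. The endothelial sum was 4709 ± 77.8 CPM in normal, 4377 ± 42.6 in ECs+ implantation, 2591 ± 11.4 in implantation A, 2509 ± 90.7 in defect and 1769.8 ± 3.91 in implantation B. Smooth muscle markers were higher for 8 of 10 and lower for 2 in ECs+ implantation against implantation B, and 3 were higher and 4 lower in defect against normal (ACTA2 -0.15 and MYH11 -0.10, neither passing). Keratinocyte markers were higher in defect for 7 of 8 and lower for 1, higher in implantation A than in normal for all 8, and 3 higher and 5 lower in implantation A against defect.

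**Figure D5:**
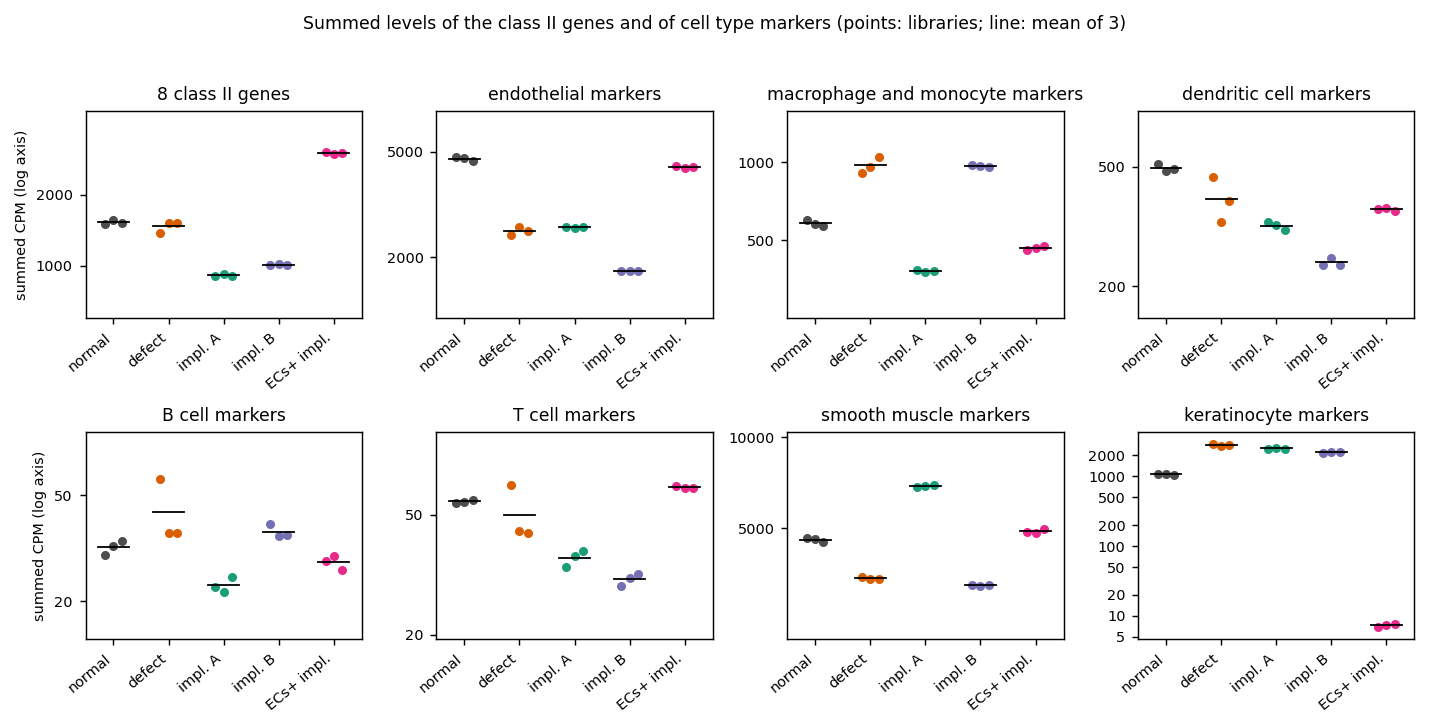
Summed CPM (log axis) of the 8 class II chain genes and of 7 marker lists in the 15 libraries, 1 point per library and a line at the mean of 3, by group. The class II and endothelial sums are high in ECs+ implantation, where the keratinocyte sum lies between 7.03 and 7.71 CPM and the macrophage sum is less than that of implantation B.

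The profile of SLA-DRA over the 5 groups was compared with those of 10829 genes that have a symbol and a mean of at least 3 on the log2 CPM scale, by the root mean square difference of the fitted group levels after each was centred. The closest were CDA (0.10 on the log2 scale), APOD (0.15), TMEM14A (0.15), ZDHHC2 (0.15) and C2 (0.16). Among the members SLA-DQB1 (0.13), SLA-DMB (0.14), SLA-DQA1 (0.15) and SLA-DMA (0.20) were near, SLA-DOA (0.35), SLA-DRB1 (0.39), CIITA (0.41) and CD74 (0.42) farther, and SLA-DOB (1.01) farthest. For CIITA the closest were CCS (0.053), IFT27 (0.066), SCARA5 (0.072), HPSE2 (0.077) and ERG (0.083), an endothelial transcription factor that is also among the endothelial markers. The members nearest to CIITA were SLA-DOA (0.17), SLA-DMA (0.26), SLA-DQB1 (0.31) and CD74 (0.36), then SLA-DMB (0.40), SLA-DRA (0.41), SLA-DRB1 (0.45) and SLA-DQA1 (0.54), with SLA-DOB at 1.01. These distances rest on 5 group levels each and describe these libraries only. The fitted defect levels lean on defect 3 for genes with few counts. By mean CPM, defect was the lowest group of CDA at 5.87 ± 6.98, with a minimum of 0. Its fitted defect level, however, lay 0.16 above its average on the log2 scale. IFT27 had 6.95 ± 6.23 CPM in defect, also with a minimum of 0.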

How the data were processed

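Polyadenylated RNA of pig corpus cavernosum was sequenced from TruSeq RNA Library Prep Kit v2 libraries, per the labels' protocols. The tools listed, without role or settings, are fastp, HISAT2, HTSeq and DESeq2, with the build Sscrofa11.1, per the submitters' processing notes. The authors deposited whole-number read counts per gene and, in a second table, TPM values, for which no source used here names a tool. Sequences of the genes were not used here.

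Groups came from the titles and column names. Counts as deposited were tested with edgeR 4.0.16 (R 4.3.3) by quasi-likelihood with robust dispersions, TMM factors, its low-count filter by group and Benjamini-Hochberg adjustment over all genes tested, at 0.05. Normal, defect and implantation A shared a fit of 9 libraries, and ECs+ implantation and implantation B a fit of 6. All 10 genes passed both filters. A fit of all 15 libraries tested the order of levels. Ratios of deposited TPM were compared by two-sided exact permutation tests. Positions come from RefSeq, in which all 10 genes matched by symbol. Scripts were tested on simulated counts with 200 changed genes. Alternatives used limma 3.58.1, DESeq2 1.42.0, other scaling and filters, other sets of libraries, a replicate block and pseudocounts of 1 and 0.1 on TPM. Lists in the text were named with up to 2 genes of smallest p per comparison, besides markers that are always named and the genes said to be chosen after their values were seen. The 10 genes and all lists were chosen with earlier results of these data known. Counts over the interferon gamma signalling genes are not reported here.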

Additional observations from a re-analysis of the deposited data

How the results depend on the processing

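Of the 10 genes, 5 were higher and 3 lower in defect than in normal tissue, where 63.9% of all genes tested changed. Scaling by library size alone gave 3 and 6, limma-trend on log2(TPM + 1) 3 and 5, and on log2(TPM + 0.1) 3 and 5. Leaving out each library in turn gave 3 to 5 higher and 2 to 3 lower, with the lowest count of higher genes without defect 3. In implantation A against defect 21.4% of all genes tested were lower. The 10 genes lower there became 5 on log2(TPM + 1), 5 on log2(TPM + 0.1) and 5 to 10 with each library left out, lowest without defect 3. In implantation A against normal, where 32.3% of all genes tested were lower, 6 to 9 of the 10 were lower. All 10 calls of ECs+ implantation against implantation B held in every alternative run, where 75.8% of all genes changed in the main fit. Except for the fit of all 15 libraries, the share of all genes that changed was not computed for the alternatives. Whether shifts in these counts are particular to the 10 genes was not tested. The order of groups kept in 4 of 10 genes with library size scaling. Single values that changed sign were SLA-DQB1 in defect against normal (-0.12 with library size scaling, -0.0099 to 0.26 with 1 library left out), and SLA-DMA there, never past the threshold, at 0.0057 with no low-count filter, 0.028 without both shallow defect libraries and -0.60 to 0.072 with 1 library left out. In implantation A against defect, SLA-DOA was 0.24 on log2(TPM + 1), 0.26 on log2(TPM + 0.1) and -0.54 to 0.45 with 1 library left out, and CIITA was 0.040 with library size scaling. The cause of these changes was not tested. Replicate numbers are shared by the groups, and whether they pair libraries is not known. Same-numbered libraries of implantation A and normal had correlations of deviations as low as -0.11, and in none of the 4 comparisons did every library correlate best with its own number. With 3 libraries per group, these correlations cannot exclude pairing. With the number as a replicate block, 4 genes were higher and 3 lower in defect than in normal, 8 lower in implantation A than in defect and 9 than in normal, and 9 higher and 1 lower in ECs+ implantation than in implantation B. Depth limits the defect values of SLA-DMA, SLA-DMB, SLA-DOA, SLA-DOB and CIITA, which have 2 to 16 counts in defect 1 and 2.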
